A study of Mus musculus with 3 samples.

Results

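The 10 CC chemokine genes Ccl2, Ccl3, Ccl4, Ccl5, Ccl6, Ccl7, Ccl8, Ccl9, Ccl12 and Ccl22 were taken by gene symbol from 55536 gene identifiers, of which 22015 were nuclear-encoded protein-coding genes. They were measured in RNA from the cytosolic fraction of macrophages grown from bone marrow of C57BL/6J mice. All cells had been exposed for 12 h to 100 ng/ml Lipid A, the endotoxin component that Toll-like receptor 4 recognises, kept for 12 h after its washout, and then given 100 ng/ml Lipid A for 10 min. The RNA was depleted of ribosomal RNA and sequenced as 3 libraries, labelled biological replicates 1, 2 and 3, which share 1 donor identifier. Age and sex were not collected, and separate animals are not stated, so p-values below measure only the spread between these libraries. The study holds 1 condition and no unstimulated or nuclear sample, so the values are levels in restimulated cytosol and not responses to Lipid A.

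CC chemokines are small secreted proteins whose first cysteines stand next to each other. They bind G protein-coupled receptors on leukocytes and draw these cells into inflamed tissue. Ccl2, Ccl7, Ccl8 and Ccl12 belong to the monocyte chemoattractant group, and Ccl2, Ccl7 and Ccl12 bind the monocyte receptor Ccr2. Ccl3, Ccl4 and Ccl5 attract monocytes and T cells. Ccl6 and Ccl9 are rodent chemokines that bind Ccr1, and Ccl22 binds Ccr4 on T cells. Macrophages are a known source of many of them after endotoxin.

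The feature that gives the family its name is shown here from the coding sequence of 9 of the genes, because it marks them as CC chemokines independently of their level. The sequences are from the GENCODE M21 transcripts on mm10, read 5′ to 3′ along the coding strand, with the adjacent cysteine codons in capitals.
Ccl2 (chr11:82036494-82036523, plus strand): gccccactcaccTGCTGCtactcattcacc
Ccl7 (chr11:82046526-82046555, plus strand): aatgcatccacaTGCTGCtatgtcaagaaa
Ccl8 (chr11:82116044-82116073, plus strand): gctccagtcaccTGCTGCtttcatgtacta
Ccl12 (chr11:82102622-82102651, plus strand): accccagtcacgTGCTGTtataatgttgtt
Ccl4 (chr11:83663470-83663499, plus strand): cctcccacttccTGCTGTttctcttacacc
Ccl5 (chr11:83529230-83529259, minus strand): gacaccactcccTGCTGCtttgcctacctc
Ccl6 (chr11:83589374-83589403, minus strand): acttcttcagacTGCTGCttctcttatgcc
Ccl9 (chr11:83575914-83575943, minus strand): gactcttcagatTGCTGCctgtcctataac
Ccl22 (chr8:94746922-94746951, plus strand): gaagacagtatcTGCTGCcaggactacatc
Each of the 10 coding sequences held exactly 1 such pair. In Ccl6 and Ccl9 the first cysteine codon was number 50 and 57 of the coding sequence, against numbers 32 to 36 in the other 8 genes. These 2 genes also had 4 exons in their coding transcript, and the other 8 had 3. Identity between aligned coding sequences, over all aligned columns with gaps included, ran between 39.3% and 68.4% over the 45 pairs of genes. It was highest for Ccl3 with Ccl4 at 68.4%, for Ccl7 with Ccl8 at 65.0%, for Ccl8 with Ccl12 at 64.8% and for Ccl6 with Ccl9 at 64.6%. Despite this likeness the counting separated the genes. The deposited gene counts of all 10 were whole numbers with a posterior standard deviation of 0 in every library, which held for 70.6% of 14726 protein-coding genes with counts.

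Of the 10 genes, 9 lie on chromosome 11 in 2 clusters separated by 1.41 Mb, and Ccl22 lies alone on chromosome 8 (chr8:94745590-94751699). The first cluster spans 81.2 kb on the plus strand and holds Ccl2 (chr11:82035571-82037453), Ccl7 (chr11:82045712-82047525), Ccl12 (chr11:82101845-82103400) and Ccl8 (chr11:82115185-82116799). The second spans 138.9 kb and holds Ccl5 (chr11:83525778-83530518), Ccl9 (chr11:83572919-83578636), Ccl6 (chr11:83587882-83593087), Ccl3 (chr11:83647844-83649355) and Ccl4 (chr11:83662584-83664683), of which only Ccl4 is on the plus strand. Opposite-strand genes overlap Ccl2 (Gm17268) and Ccl6 (E230016K23Rik). They shared 0 exon bases with these chemokines and had 0 counts in every library for Gm17268 and 0, 2 and 2 counts for E230016K23Rik in replicates 1, 2 and 3.

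The libraries held 31968675, 53094481 and 57070432 expected counts on genes in replicates 1, 2 and 3, and the 10 genes took 0.389%, 0.269% and 0.374% of them. The labelled cell type was met by its markers: all 8 macrophage markers, such as Csf1r and Adgre1, reached 10 TPM in every library. That level was reached by 17.3% of nuclear-encoded protein-coding genes, and 1 TPM in every library by 41.4%. All dendritic cell, lymphocyte, fibroblast, mast cell and megakaryocyte markers averaged under 1 TPM, as did 6 of 8 neutrophil markers. The dendritic cell gene Flt3, the T cell gene Cd3e and the neutrophil gene Ly6g averaged 0.04, 0 and 0 TPM. The neutrophil markers S100a8 and S100a9 reached 1 TPM in every library, with means of 3.04 and 5.45 TPM. The highest dendritic cell marker, Ccr7, averaged 0.997 TPM. Replicate 1 stood apart in RNAs that normally stay in the nucleus. Malat1 was at 1333, 118 and 152 TPM, Neat1 at 66.0, 13.9 and 17.6 TPM and Xist at 32.6, 0.42 and 0.35 TPM in replicates 1, 2 and 3. The level of Xist also depends on sex, which was not collected. For Xist a difference in sex and a difference in nuclear RNA therefore cannot be told apart. The 8 nuclear-retained RNAs summed to 1435, 133 and 170 TPM. These values accompany every result below that rests on replicate 1, and their part in those results was not tested.

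Levels in TPM, which divide counts by transcript length and scale each library to a fixed total, showed Ccl5 far above the rest. Ccl5 was at 6478, 3181 and 5301 TPM in replicates 1, 2 and 3, a mean of 4987 ± 1671 TPM (SD, n = 3). It was lowest in replicate 2. The ratio of Ccl5 to Ccl3, the next gene, was 22.95, 18.1 and 36.7 in the 3 libraries, so no library came near to reversing the order. In bulk RNA fewer cells carrying a transcript and less of it per cell cannot be told apart. Ccl5 held 81.6%, 79.8% and 87.0% of the summed TPM of the 10 genes, a mean of 82.8% ± 3.72 (SD, n = 3). Its share of their expected counts, which are not divided by length, was 70.2%, 65.0% and 74.3%. Among nuclear-encoded protein-coding genes Ccl5 ranked 4 in replicate 1, 6 in replicate 2 and 3 in replicate 3. By mean TPM its rank was 3.

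**Figure D1:**
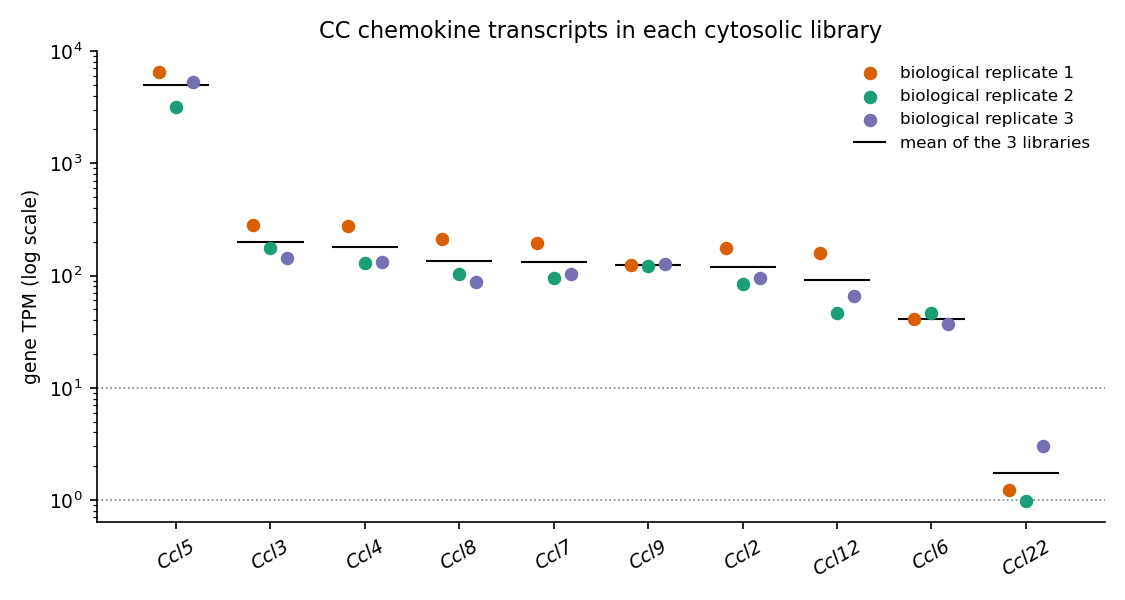
Gene TPM on a log axis for the 10 CC chemokine genes, ordered by mean. Points are the 3 libraries, black lines their mean, and dotted lines 1 and 10 TPM. Ccl5 stood at 3181 TPM or more in every library, Ccl22 between 0.99 and 3.06 TPM, and the other 8 genes in between.

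Ccl3 and Ccl4, the macrophage inflammatory proteins, came next. Ccl3 was at 282, 176 and 145 TPM and Ccl4 at 274, 130.4 and 132 TPM in replicates 1, 2 and 3. Their means were 200.8 ± 72.2 TPM for Ccl3 and 179 ± 82.4 TPM for Ccl4 (SD, n = 3). Both were highest in replicate 1, and their ranges overlapped, although Ccl3 was above Ccl4 in 3 of 3 libraries.

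The means of the monocyte chemoattractants lay between 90.8 and 134 TPM. Ccl8, which in mice also acts on the receptor Ccr8, was at 211, 103 and 87.0 TPM (mean 134 ± 67.6, SD, n = 3). Ccl7 was at 196, 94.3 and 103 TPM (mean 131 ± 56.5, SD, n = 3), and Ccl2, the main monocyte attractant of this group, at 176, 84.6 and 95.9 TPM (mean 119 ± 49.5, SD, n = 3). Replicate 1 was the highest library for all 3 genes, and the TPM ranges of the 3 genes overlapped. Ccl12, a mouse ligand of Ccr2, was at 160.2, 46.6 and 65.7 TPM, a mean of 90.8 ± 60.8 TPM (SD, n = 3). It had the widest TPM range of the 9 genes above 10 TPM, 3.44 times between replicates 1 and 2. Without replicate 1 the means were 90.3 TPM for Ccl2, 98.9 for Ccl7, 95.04 for Ccl8 and 56.1 for Ccl12.

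By the gene TPM used here, Ccl9 and Ccl6, the Ccr1 ligands with the longer start, did not share the high TPM of replicate 1. Ccl9 was at 123, 122 and 127 TPM, a mean of 124 ± 2.28 TPM (SD, n = 3), the narrowest of the 10 relative to its mean (coefficient of variation 1.83%). The 95% credibility intervals that the authors' table gives for its TPM were 112 to 129, 116 to 127 and 120 to 132 and overlapped in all libraries. Ccl6 was at 40.9, 46.0 and 36.6 TPM, a mean of 41.2 ± 4.70 TPM (SD, n = 3), and was highest in replicate 2. Ccl22, the Ccr4 ligand, was at 1.22, 0.99 and 3.06 TPM on 111, 184 and 627 counts, a mean of 1.76 ± 1.13 TPM (SD, n = 3). Its credibility intervals of 1.01 to 1.67 and 0.858 to 1.21 TPM in replicates 1 and 2 overlapped, and that of replicate 3, 2.83 to 3.36 TPM, lay above both. The kallisto-style tables, a second deposited quantification, put Ccl9 at 100.7, 52.1 and 43.3 TPM in replicates 1, 2 and 3. There Ccl6 was at 31.2, 20.0 and 12.6 TPM, and both genes were highest in replicate 1. Gene TPM rescaled over nuclear-encoded protein-coding genes put Ccl9 at 359, 441 and 457. The narrow range of Ccl9 therefore depends on the TPM scale.

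By mean TPM the order was Ccl5, Ccl3, Ccl4, Ccl8, Ccl7, Ccl9, Ccl2, Ccl12, Ccl6 and Ccl22. Neighbours whose ranges over the libraries did not overlap were Ccl5 and Ccl3, Ccl12 and Ccl6, and Ccl6 and Ccl22. The other 6 neighbouring pairs overlapped between libraries. Within a library, Ccl3 was above Ccl4, Ccl4 above Ccl8 and Ccl2 above Ccl12 in 3 of 3. Ccl7 was above Ccl9 in 1 of 3 libraries, and Ccl8 above Ccl7 and Ccl9 above Ccl2 in 2 of 3. Of the 10 genes, 9 reached 10 TPM in every library, against 17.3% of nuclear-encoded protein-coding genes, and the same 9 genes reached 1 TPM in every library, against 41.4%. Ccl22 missed both levels. The members were chosen with earlier results of these data known, so these counts may follow from that choice.

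The position of Ccl9 depended on how its transcripts were counted. The transcript Ccl9-202, a noncoding form of 398 bases with 39 bases outside the exons of the coding transcript Ccl9-201, took 50.2%, 51.7% and 46.6% of the gene's TPM but 5.56%, 6.47% and 4.70% of its expected counts in replicates 1, 2 and 3. The effective lengths by which counts were divided were 162, 180.04 and 156 bases for Ccl9-202, against 2765, 2785 and 2760 bases for Ccl9-201. The coding transcript alone was at 61.4, 59.1 and 67.7 TPM, a mean of 62.8 ± 4.46 TPM (SD, n = 3). On that measure, chosen after the values were seen, Ccl9 ranked 8 of the 10 genes, against 6 by gene TPM and 2 by mean expected counts. Short transcripts were affected in general: effective length was 54.0% of annotated length for Ccl8-201, 55.8% for Ccl5-201 and 92.2% for Ccl9-201. With counts divided by annotated length instead, also chosen after the values were seen, Ccl5 still held 80.9% of the summed level of the 10 genes. The place of Ccl8 moved as well. It ranked 4 by gene TPM, 6 by counts divided by annotated length and 8 by mean expected counts. By gene TPM without replicate 1 it ranked 6.

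Libraries were compared on CPM, counts scaled to library size after normalization by trimmed mean of M values (TMM), because the share of TPM held by nuclear-encoded protein-coding genes was 34.3%, 27.8% and 27.8% in replicates 1, 2 and 3. A chi-square test against a single rate found that 10 of 10 members varied between libraries by more than counting error at an adjusted p under 0.05, as did 71.5% of all 12515 genes kept. The largest adjusted chi-square p was 5.62e-56 for Ccl6, at counts of 1971, 5031 and 4261. Most genes of these libraries met this test, and the members' count is read against that share. High counts are called more readily, and members other than Ccl22 had at least 1376 counts in every library. The filter for all genes used a minimum count of 10, so these shares are not matched to the members in depth. Without replicate 1 the test called 9 members and missed Ccl4, against 40.4% of all genes. Without replicate 3 it called 9 and missed Ccl22, against 61.5% of all genes.

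Replicate 1 had the highest CPM for 7 of 10 members, which were Ccl2, Ccl3, Ccl4, Ccl5, Ccl7, Ccl8 and Ccl12, against 39.8% of all genes. Replicate 2 had the lowest CPM for 5 of 10, against 32.9% of all genes. Both counts changed under some other settings, as given at the end. Ccl12 was at 70.1, 25.6 and 34.6 CPM in replicates 1, 2 and 3, so that replicate 1 exceeded the mean of the others by 1.24 on the log2 scale. Ccl8 was at 84.7, 52.1 and 41.9 CPM, with a log2 difference of 0.86 for replicate 1. Ccl4 was at 169.8, 99.6 and 99.0 CPM, with a log2 difference of 0.77.

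The same library was high for Ccl2 and Ccl7. Ccl2 was at 149.8, 87.3 and 98.9 CPM and Ccl7 at 163, 95.1 and 104 CPM, with log2 differences of 0.69 and 0.71 for replicate 1. Ccl3 was at 219, 167 and 136 CPM, a log2 difference of 0.54. Ccl5 behaved otherwise, because replicates 1 and 3 were close at 2799 and 2756 CPM and replicate 2 was low at 1724 CPM. Its log2 differences were 0.36, -0.69 and 0.33 for replicates 1, 2 and 3.

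The remaining genes were not highest in replicate 1. Ccl9 was at 266, 306 and 356 CPM and highest in replicate 3. Ccl6 was at 63.1, 93.5 and 74.2 CPM and highest in replicate 2. Ccl22 was at 3.56, 3.42 and 10.9 CPM, and replicate 3 exceeded the mean of the others by 1.63 on the log2 scale. The median log2 difference over the 10 genes was 0.61 for replicate 1, -0.42 for replicate 2 and -0.23 for replicate 3, against medians of -0.014, 0.002 and -0.002 over all genes kept. On the same scale Malat1, Neat1 and Xist exceeded the other libraries in replicate 1 by 3.40, 2.37 and 6.15, and whether their excess bears on the chemokines was not tested. The value of Xist may also reflect sex, which was not collected. Between replicates 2 and 3 alone, the median log2 difference over the members was 0.14 in favour of replicate 3.

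**Figure D2:**
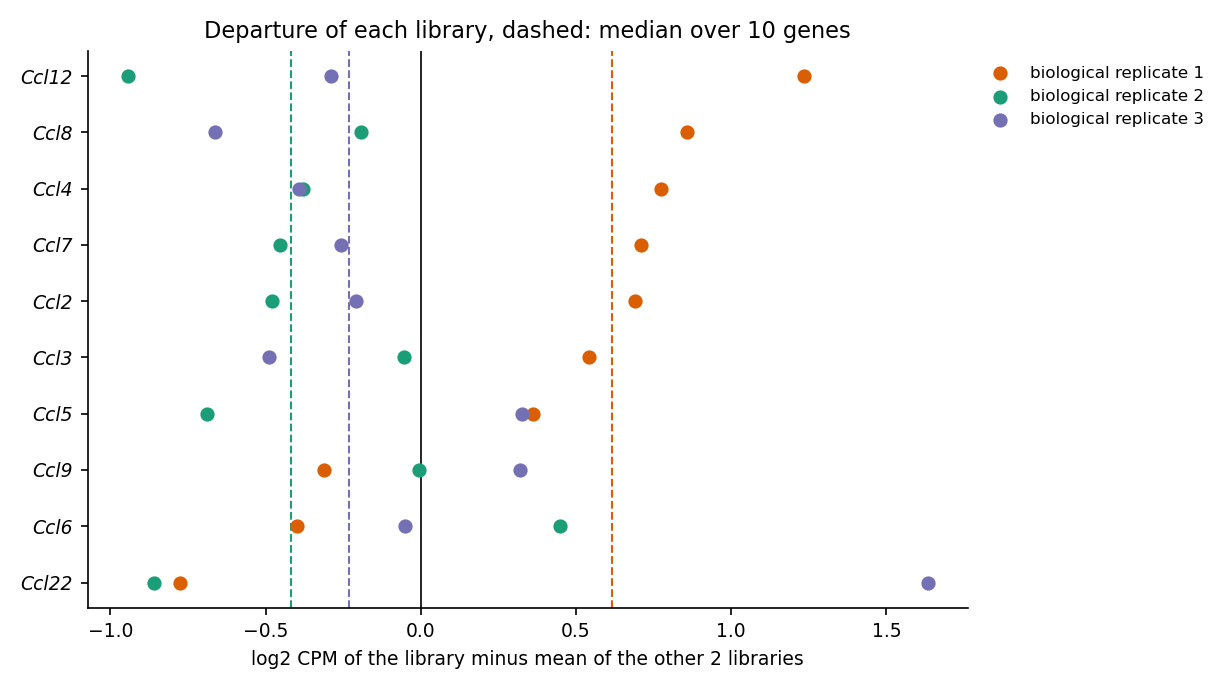
Log2 CPM of each library minus the mean of the other 2, per gene, with dashed lines at the median over the 10 genes (0.61, -0.42 and -0.23 for replicates 1, 2 and 3). Replicate 1 lies to the right for 7 genes, whereas Ccl9, Ccl6 and Ccl22 are low there.

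The biological coefficient of variation (BCV) estimates the relative spread between libraries beyond counting. Here it was the tagwise value of edgeR, which draws the estimate of each gene toward that of genes at like levels. Its median was 0.223 over the 10 genes, against 0.172 over all genes kept. Without replicate 1 these medians were 0.106 and 0.104. Ccl22 and Ccl12 varied most, with BCVs of 0.468 and 0.342, and without replicate 1 they were 0.346 and 0.123. Without replicate 1 Ccl22 was followed by Ccl5 at 0.170, and Ccl4 was lowest at 0.0821. The chi-square test did not call Ccl4 without replicate 1, so 0.0821 cannot be read as its own spread.

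The ratio of 2 members within a library does not depend on library scaling. Some of the 45 pairs of members kept their proportion over the 3 libraries more closely than others. Pairs of other genes were not compared, so whether any pair was unusually steady cannot be told. Counts of Ccl2 were 0.920, 0.918 and 0.949 times those of Ccl7 in replicates 1, 2 and 3, the tightest of the 45 pairs (SD of the log2 ratio 0.027). Ccl2 made up 47.9% (Wilson 95% interval 46.9 to 48.9), 47.9% (46.9 to 48.9) and 48.7% (47.8 to 49.6) of the counts of the pair, so the libraries differed by less than their counting intervals. These genes are neighbours with 8.26 kb between them. Their coding sequences were 46.6% identical, where Ccl2 is the longest of the family with 447 coding bases and Ccl7 has 294.

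Other neighbours kept their proportion less well. Ccl3 made up 56.4% (55.5 to 57.2), 62.6% (61.8 to 63.4) and 57.9% (57.1 to 58.8) of the counts of Ccl3 and Ccl4, and replicate 2 was the high one. Ccl12 made up 45.3% (43.9 to 46.7), 32.9% (31.5 to 34.4) and 45.2% (43.8 to 46.7) of the counts of Ccl12 and Ccl8, and replicate 2 was the low one. Ccl6 made up 19.2% (18.4 to 20.0), 23.4% (22.83 to 23.96) and 17.3% (16.8 to 17.7) of the counts of Ccl6 and Ccl9. The intervals are Wilson 95% intervals and, like those above, cover counting error only. Genes of different clusters could also be close: Ccl4 and Ccl7 were the second tightest pair with count ratios of 1.043, 1.047 and 0.9504. The widest pair was Ccl8 and Ccl22, with ratios of 23.8, 15.2 and 3.84 and an SD of 1.37.

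**Figure D3:**
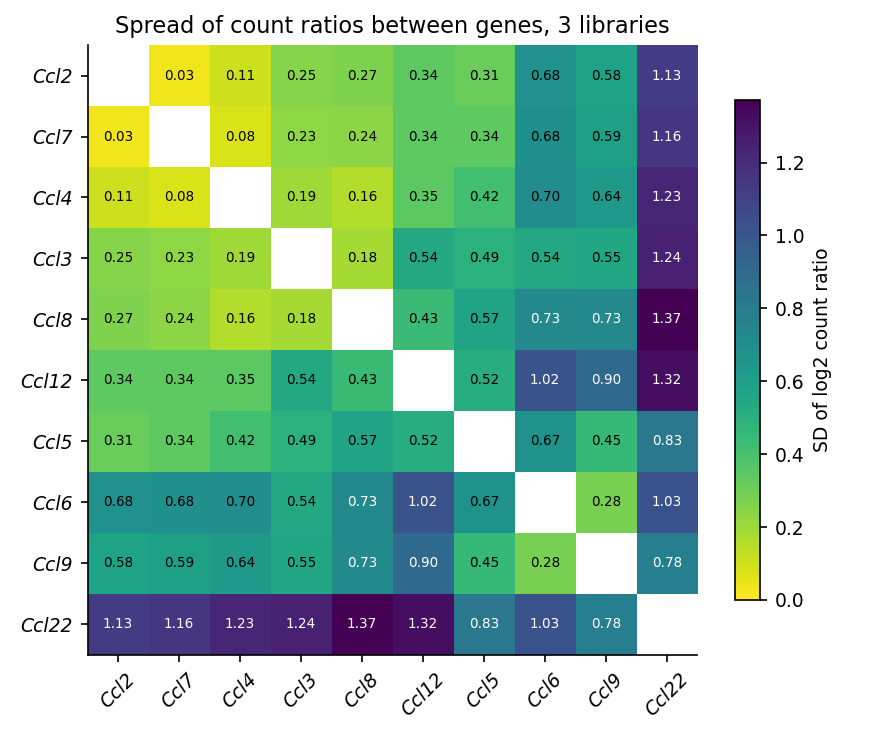
SD over the 3 libraries of the log2 ratio of counts for each of the 45 pairs of genes, light where the ratio was steady. Ccl2 and Ccl7 form the lightest cell at 0.03, Ccl2, Ccl7, Ccl4, Ccl3 and Ccl8 form a light block, and the row of Ccl22 is the darkest, up to 1.37.

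The annotation gives the 10 genes 17 transcripts. Ccl3, Ccl4, Ccl7 and Ccl8 have 1 each, and 4 transcripts of Ccl2, Ccl5 and Ccl6 are classed as retained introns, in which intron sequence stays in the RNA. Their exon and intron borders are shown because these bases are what tells the forms apart in reads, with intron bases in capitals.
Ccl2-202 (chr11:82036601-82036925, plus strand, intron 2): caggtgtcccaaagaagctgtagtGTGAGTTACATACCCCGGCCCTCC
Ccl5-202 (chr11:83526065-83529155, minus strand, intron 2): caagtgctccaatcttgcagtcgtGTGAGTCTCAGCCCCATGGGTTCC
Ccl6-203 (chr11:83589415-83589756, minus strand, intron 2): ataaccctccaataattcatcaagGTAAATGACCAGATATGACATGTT
Ccl6-202 (chr11:83589805-83592865, minus strand, intron 1): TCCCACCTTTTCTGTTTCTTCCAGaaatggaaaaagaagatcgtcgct
The coordinates are those of the whole intron on mm10. In the coding transcripts of Ccl2 and Ccl5 the same exon continues directly into the next one, as follows.
Ccl2-201: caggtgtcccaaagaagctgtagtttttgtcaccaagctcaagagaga
Ccl5-201: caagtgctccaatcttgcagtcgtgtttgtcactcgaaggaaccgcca
Ccl2-202 holds the whole of intron 2, 325 of its 1096 bases. Ccl5-202 holds the first 428 bases of intron 2 and ends there, in a length of 668. Ccl6-203 holds 284 bases of intron 2 in a length of 442. Ccl6-202 differs, because it begins inside intron 1 and holds only the last 71 intron bases in a length of 776, and its other exons are shared with the coding transcript.

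**Figure D4:**
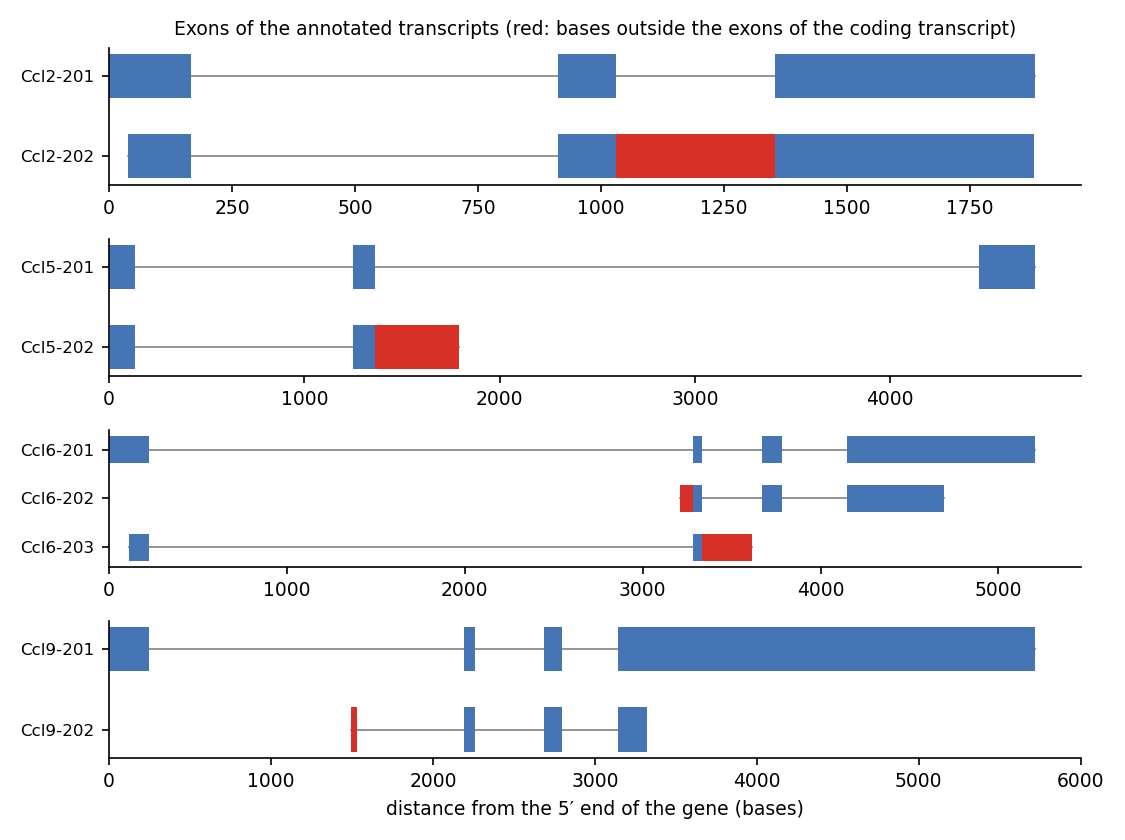
Exons of the annotated transcripts of Ccl2, Ccl5, Ccl6 and Ccl9 by distance from the 5′ end of each gene, in bases, with bases outside the exons of the coding transcript in red. The red stretch is 325 bases in Ccl2-202 and 428 in Ccl5-202 but 71 in Ccl6-202 and 39 in Ccl9-202.

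Retained-intron forms of Ccl2 and Ccl5 were minor in this cytosolic RNA. Ccl2-202 took 1.69%, 0.33% and 0.45% of the gene's TPM in replicates 1, 2 and 3, on 117, 22.9 and 38.1 expected counts. Ccl5-202 took 0.19%, 0.04% and 0.04%, on 247, 53.9 and 87.9 expected counts. Both shares were highest in replicate 1, the library with the high nuclear RNAs. The means were 0.82% ± 0.75 for Ccl2 and 0.09% ± 0.087 for Ccl5 (SD, n = 3), and without replicate 1 they were 0.39% and 0.04%. The kallisto-style tables gave 2.14%, 0.404% and 0.565% for Ccl2-202 and 0.317%, 0.041% and 0.035% for Ccl5-202, with the same library highest. Whether the nuclear RNAs of replicate 1 bear on these shares was not tested.

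Ccl6 had the largest retained-intron share, and it depended on the quantification. Ccl6-202 took 23.1%, 7.20% and 11.0% of the gene's TPM in replicates 1, 2 and 3, on 233, 172 and 223 expected counts, which were 11.8%, 3.42% and 5.23% of the gene's counts. In the kallisto-style tables it took 42.1%, 36.8% and 34.6%. Replicate 1 was highest on each of these measures. Ccl6-203, which holds more intron bases than Ccl6-202, took 0.27%, 0.22% and 0.41% on 1.04, 2.11 and 3.10 expected counts and was highest in replicate 3. Together the 2 forms averaged 14.1% ± 8.27 of TPM (SD, n = 3), 9.42% without replicate 1 and 37.9% in the kallisto-style tables.

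Noncoding forms without a retained intron were large only for Ccl9, as above, where the kallisto-style tables gave 61.2%, 61.3% and 55.4% for Ccl9-202. Ccl12-202 took 1.81%, 2.01% and 1.54% of the TPM of Ccl12. Ccl22-202 had 0 counts in every library.

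**Figure D5:**
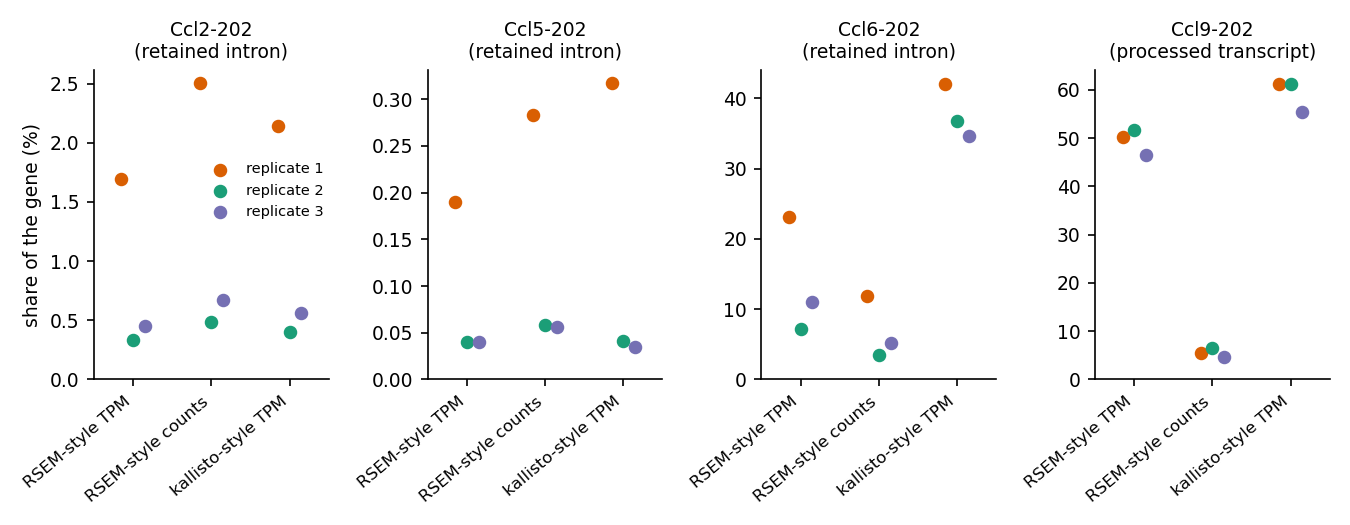
Share of the gene held by Ccl2-202, Ccl5-202, Ccl6-202 and Ccl9-202 in each library, by RSEM-style TPM, RSEM-style expected counts and kallisto-style TPM, on linear axes that start at 0 and differ between panels. Replicate 1 is highest for the 3 retained-intron forms on all measures, and Ccl9-202 is near 5% of counts but near 50% of TPM.

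Features outside the coding sequence varied within the family. The pentamer ATTTA, the core of AU-rich elements through which many cytokine mRNAs are degraded, occurred 5 times in the 3′ UTR of Ccl3, Ccl12 and Ccl9, 4 times in Ccl6, 2 times in Ccl4, Ccl7 and Ccl22, once in Ccl2 and not in Ccl5 or Ccl8. Per kilobase this was 29.9 in the 167 bases of Ccl12 and 12.2 in the 409 bases of Ccl3, and 0 in the 199 bases of Ccl5. The median was 3.94 per kilobase over the 10 genes, against 1.36 over 8526 protein-coding genes at 1 TPM in every library. The longer form TTATTTATT occurred in 0 of 10, against 7.0% of those genes, whose 3′ UTRs were longer with a median of 983.5 bases against 355.5 in the members.

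Promoter sequence from RefSeq on GRCm38.p6, 250 bases before to 50 after the start, was at hand for Ccl3, Ccl6, Ccl8, Ccl9, Ccl12 and Ccl22. The neighbours Ccl12 and Ccl8 are shown because both had the letters TATAAA, in capitals here, shortly before the start.
Ccl12 (chr11:82101775-82101864, plus strand): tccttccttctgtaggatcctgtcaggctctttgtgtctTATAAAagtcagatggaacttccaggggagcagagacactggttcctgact
Ccl8 (chr11:82115115-82115204, plus strand): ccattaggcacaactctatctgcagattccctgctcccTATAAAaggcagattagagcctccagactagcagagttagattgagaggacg
The first T stood at -31 in Ccl12 and -32 in Ccl8, counted from the start. On either strand TATAAA occurred in 3 of 6 member promoters, the other being Ccl9, and in 13.6% of all 32851 promoters. The letters GGNNNTTCC, a relaxed form of the kappaB site, occurred in 2 of 6, against 18.5% of all, at -17 in Ccl12 and at -35 on the opposite strand in Ccl9. The AP-1 letters TGANTCA occurred in 1 of 6, at -53 in Ccl9, against 7.8% of all. GAAANNGAA, from the core of interferon response elements, occurred in 1 of 6, at -39 on the opposite strand in Ccl3, against 8.6%, and TTGCNNAA, a C/EBP form, in 0 of 6, against 10.8%. Both strands were searched, and the matches describe letters within the window only.

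Other CC chemokines were scarce. Of 11 further CC chemokine genes 1, Ccl25, reached 1 TPM in every library, against 41.4% of nuclear-encoded protein-coding genes. Ccl25 was at 3.24, 1.80 and 1.77 TPM. Ccl24, Ccl27a and Ccl11 followed with means of 0.553, 0.137 and 0.027 TPM. The deposited posterior mean TPM of Ccl27a was higher, at 1.72, 0.89 and 0.86 in replicates 1, 2 and 3. Ccl1, Ccl17, Ccl19, Ccl20, Ccl21a and Ccl26 had 0 counts in every library, which allows a level of up to 1.03 TPM for the least sensitive of them, at 3 counts and for counting error only. Ccl11 lies within the first cluster, between Ccl7 and Ccl12, and had 3, 0 and 0 counts there, while its neighbours Ccl7 and Ccl12 had 5082 and 2189 counts in replicate 1.

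Of 14 CC receptor genes 4 reached 1 TPM in every library, against 41.4% of nuclear-encoded protein-coding genes, and 10 averaged under 1 TPM. Ccrl2, an atypical receptor that does not signal through G proteins, was at 30.9, 16.6 and 13.8 TPM in replicates 1, 2 and 3. It was highest in replicate 1. Ccr1, the receptor of Ccl6 and Ccl9, was at 5.01, 5.36 and 4.79 TPM, and Ccr2, the receptor of Ccl2, Ccl7 and Ccl12, at 2.09, 2.20 and 2.55 TPM, with no such excess in replicate 1. Ccr8 and Ackr1 had 0 counts throughout, and 3 counts would have made at most 0.108 TPM. For Ackr1 the deposited posterior mean TPM was higher, at 2.95, 1.32 and 1.91 in replicates 1, 2 and 3. The upper ends of its deposited credibility intervals were 8.66, 3.91 and 5.61 TPM, so 0.108 TPM is not an upper limit for Ackr1.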

How the data were processed

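Cytosolic RNA of 3 macrophage libraries of 1 group was measured. Expected counts of genes and transcripts, which need not be whole, were deposited by the authors; reads had been aligned to transcripts of GENCODE M21 (mm10), per the notes with the files. The authors also deposited TPM scaled over all listed features, per the file headers, and the share of each transcript as a percent of its gene's TPM. The posterior standard deviation of each count was deposited by the authors in the same tables, whose column names are those of RSEM. A kallisto-style transcript table gave deposited estimated counts and TPM. The tools with their versions and the strand setting: not given in the sources used here.

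The members and gene lists were chosen with earlier results of these data known. All 10 members are named. Of the other CC chemokine and receptor genes, the 4 highest and those at 0 counts may be named, of the nuclear-retained RNAs the 3 highest, and of the members' transcripts those with a mean share of at least 5% or a retained intron. Csf1r, Adgre1, Flt3, Cd3e and Ly6g are named as defining markers, and Ccl12-202 and Ccl22-202 to complete the count. S100a8, S100a9 and Ccr7 are named as the highest of their marker lists. Some items that this rule would name are not reported here.

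Symbols were joined by gene identifier to GENCODE M21. Rows naming no gene (0.435%, 0.134% and 0.0823% of counts in replicates 1, 2 and 3) were left out of library sizes. Rounded counts entered edgeR 4.0.16 in R 4.3.3 with filterByExpr (minimum count 10), TMM and an intercept-only dispersion fit. All 10 members passed this filter. For each gene a chi-square test of the counts against 1 common rate was adjusted by Benjamini-Hochberg over 12515 genes. Log2 CPM had a prior count of 2. DESeq2 1.42.0 size factors, library size only, no filter, kallisto-style values, posterior mean TPM, rescaled TPM and leaving out each library were alternatives. Coding sequences were aligned globally with Biopython 1.88. Promoters came from RefSeq.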

Additional observations from a re-analysis of the deposited data

How the results depend on the processing

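Ccl5 held between 80.7% and 84.3% of member TPM with 1 library left out, and the 9 genes at 10 TPM stayed 9 under every alternative run. With 1 library left out, 9 or 10 members varied beyond counting error, against 40.4% of all genes without replicate 1, 58.2% without replicate 2 and 61.5% without replicate 3. It was 10 under the other alternatives, against 53.9% of all genes with no filter and 76.8% with kallisto-style counts. The median level over the members, 128 TPM, was 65.8 TPM in the kallisto-style tables and 424 when rescaled over nuclear-encoded protein-coding genes, and it lay between 97.0 and 142 TPM with 1 library left out. Nuclear-encoded protein-coding genes held 24.3%, 10.1% and 8.15% of TPM in the kallisto-style tables for replicates 1, 2 and 3, a smaller part than in the RSEM-style tables. The kallisto-style tables put the retained-intron share of Ccl6 at 37.9%, against 14.1%, and the cause was not tested. With 1 library left out this share lay between 9.42% and 17.4%, that of Ccl2 between 0.39% and 1.07%, and that of Ccl5 between 0.04% and 0.115%. With 1 library left out, the median log2 difference over the members lay between 0.62 and 0.70 for replicate 1 and between -0.70 and -0.14 for replicate 2. For replicate 3 it lay then between -0.62 and 0.14, changing sign without replicate 1, since only replicate 2 is then left to compare with. Over the other normalizations, filters, prior counts and the kallisto-style counts it lay between 0.51 and 0.62 for replicate 1, between -0.42 and -0.36 for replicate 2 and between -0.24 and -0.19 for replicate 3. Ccl5 was highest in replicate 3 and not 1 with library size only (log2 differences 0.345 and 0.312), no filter (0.369 and 0.263) and kallisto-style counts (0.356 and 0.279). Ccl22 was lowest in replicate 1 and not 2 with no filter (-0.872 and -0.803) and kallisto-style counts (-0.873 and -0.765).

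With 3 libraries of 1 condition, neither a response to Lipid A nor a difference between fractions can be read from these values. Counts of Ccl22 (111 at the lowest) and of the retained-intron forms limit their precision.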
